A study of Mus musculus with 8 samples.

Results

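The B cell receptor and the proteins that carry its signal were followed through 9 genes: the receptor's signalling chains Cd79a and Cd79b, the kinases Blk and Btk, the adaptors Blnk and Bank1, and the surface proteins Cd22, Fcmr and Ms4a1. The genes are known parts of the receptor complex and its pathway, chosen by name with earlier results of these data known, and all 9 were among the 7456 genes tested on Illumina mouse arrays. The 9 genes carried 12 of the 24613 probes: 2 each for Cd79b, Blk and Blnk, and 1 for each other gene. RNA came from cultured splenocytes, the cells of the spleen, of C57BL/6 mice aged 5 to 6 weeks, with the spleens of 4 mice pooled.

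The mice had 3 p53 genotypes: wild type (WT), p53-/- (called p53-null here), and Δ122p53, whose p53 protein is truncated at the N terminus. Amsacrine, a topoisomerase II poison that leaves breaks in DNA, was given at 1 µg/mL for 5 hours. Each genotype had a control and an amsacrine group, and p53-null cells also had a group given 4 Gy of gamma rays, which makes 7 groups. The p53-null controls were run on 2 arrays, and every other group on 1. The protocol in the labels gives a carrier control of 30% ethanol for amsacrine and untreated cells for irradiation, but not which of these each control array was. Neither the time from irradiation to harvest nor the origin of the 2 p53-null controls (1 pool or separate pools) is stated in the sources used here. The p-values below thus reflect array-to-array spread that may be only technical, and single arrays were taken to vary as much as the p53-null controls do. The gene that encodes p53 had no probe among those named here, so the genotype labels were not checked by it.

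A B cell senses antigen with a membrane immunoglobulin that is paired with a dimer of the Cd79a and Cd79b proteins. Src-family kinases such as Blk and Lyn phosphorylate tyrosines in the tails of the dimer, the kinase Syk binds there, and the adaptor Blnk brings Btk to phospholipase C gamma 2, which starts calcium release. Cd22 recruits the phosphatase encoded by Ptpn6 and dampens this signal. The spleen is rich in mature B cells, which carry all of these proteins.

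The stretches before the transcription start are shown for the 4 genes that passed the test for amsacrine, Cd22, Cd79a, Bank1 and Fcmr, and for Blnk, which had the smallest amsacrine effect of the 9 when the genotypes were pooled. They come from RefSeq on GRCm38.p6, whose promoter table matched 6 of the 9 genes (Cd22, Cd79a, Bank1, Fcmr, Btk and Blnk). Each is written 5′ to 3′ on the gene's strand, and capitals mark a motif found on either strand. Cd79a, Fcmr and Blnk are given from 150 bases before the start, at chr7:24897347-24897496 (+), chr1:130865627-130865776 (+) and chr19:40994222-40994371 (-). The Cd22 window, like that of Btk, lies wholly inside the annotated gene, and the Bank1 window reaches into its gene. For Cd22 and Bank1, 30 bases around the motif are thus given, at chr7:30879058-30879087 (-) and chr3:136326069-136326098 (-), both inside the annotated gene.
Cd79a: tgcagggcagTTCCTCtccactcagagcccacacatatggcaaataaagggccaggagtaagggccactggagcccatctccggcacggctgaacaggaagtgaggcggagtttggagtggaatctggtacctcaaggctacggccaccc
Fcmr: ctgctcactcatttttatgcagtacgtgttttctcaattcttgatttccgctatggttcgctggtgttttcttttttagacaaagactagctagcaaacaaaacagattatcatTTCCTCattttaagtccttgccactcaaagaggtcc
Blnk: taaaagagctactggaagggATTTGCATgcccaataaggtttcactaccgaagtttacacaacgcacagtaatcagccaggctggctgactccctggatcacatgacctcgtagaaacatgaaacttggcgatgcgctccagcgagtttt
Cd22: tcctgcaagatCCCTGGGGactcacacaga
Bank1: tgcggcctgagCCCCTGGGctgcatttccg

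Motifs of 3 factors with known roles in B cells were searched in windows from 250 bases before to 50 bases after the start. The core of the early B cell factor site, CCCNNGGG, was found in Cd22 (bases -48 to -41) and Bank1 (-21 to -14), thus in 2 of 6 windows against 13.7% of all 32851 windows. The core of the PU.1 site, GAGGAA, lay on the opposite strand in Cd79a (-140 to -135), Fcmr (-36 to -31) and Btk (10 to 15), thus in 3 of 6 windows against 28.3%. On the strands printed above it reads TTCCTC. The octamer ATGCAAAT, bound by Oct factors, lay on the opposite strand in Blnk (-130 to -123), thus in 1 of 6 windows against 1.74%, and reads ATTTGCAT above. The 3 motifs did not overlap in these windows. A match of letters is a description of the sequence and does not show that a factor binds there.

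All levels below are log2 intensities after background correction and quantile normalization, so a step of 1 is a 2-fold step. Levels of different genes are not comparable, because each probe has its own brightness. A probe counted as detected on an array at a detection p-value under 0.01. Between 7710 and 8633 probes were detected per array (31.3% to 35.1%), and the lowest detected signal lay between 5.72 and 6.05. The probes used for Cd79a, Cd79b, Blk, Fcmr, Ms4a1, Btk and Blnk were detected on all 8 arrays. The Cd22 probe was not detected on the 3 amsacrine arrays, and the Bank1 probe was not detected on the Δ122p53 amsacrine array. Within the p53-null control pair the 9 genes differed by 0.07 (Cd79a) to 0.60 (Bank1), against a median absolute difference of 0.30 over all genes.

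**Figure D1:**
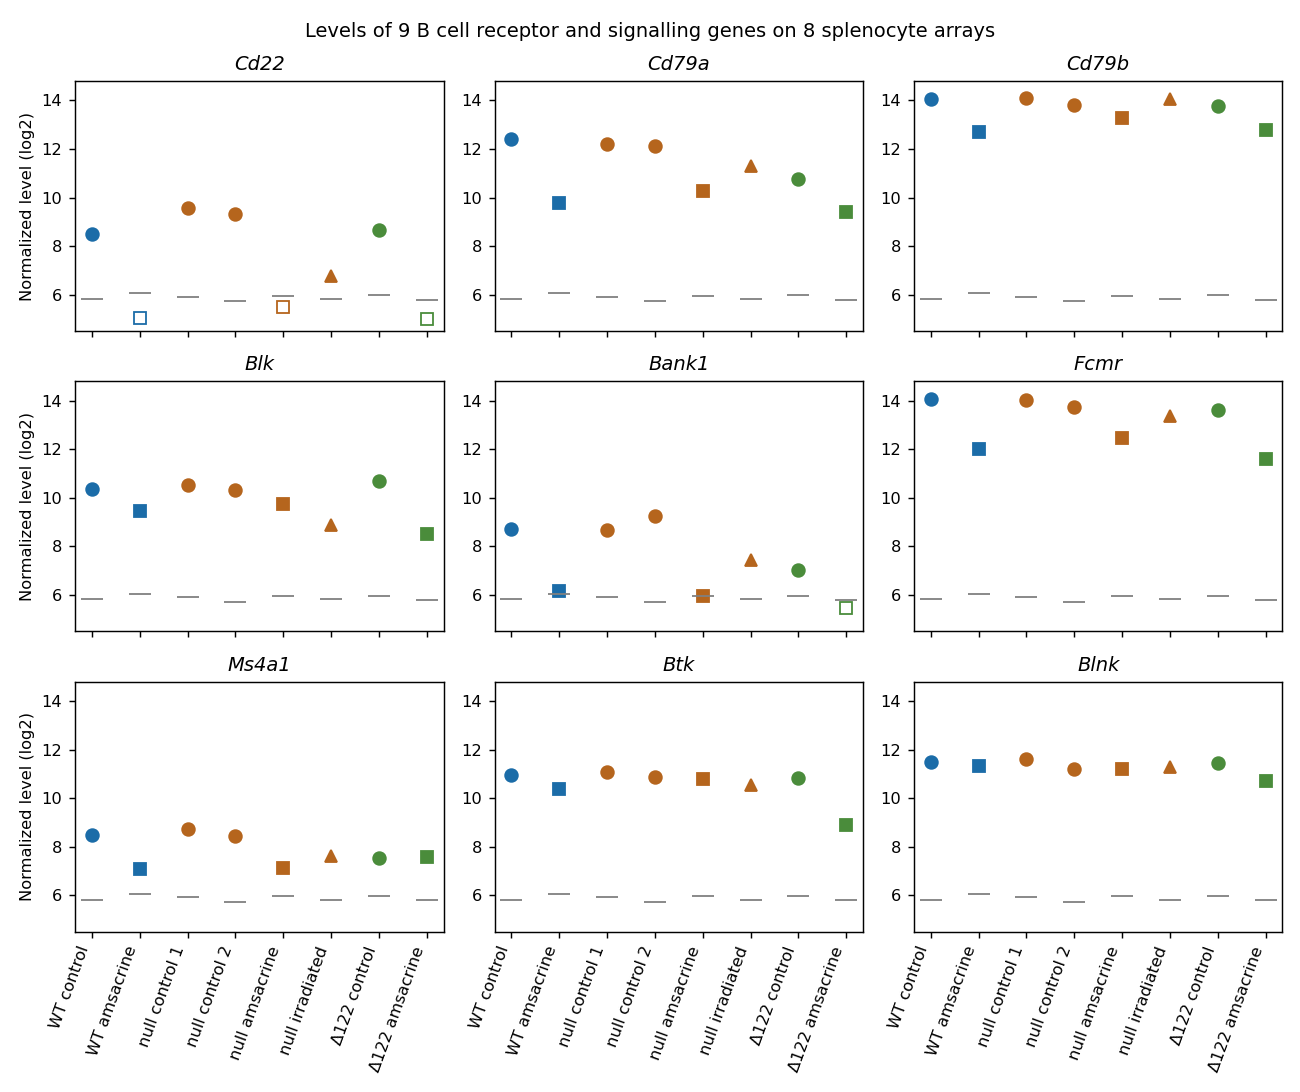
Normalized level (log2) of each of the 9 genes on each of the 8 arrays, 1 panel a gene. Circles are controls, squares amsacrine, triangles irradiation, open symbols mark a probe that was not detected, and grey dashes mark the lowest detected signal on that array; the amsacrine squares lie under the controls of their genotype except for Ms4a1 in Δ122p53 cells, at 7.58 against 7.52.

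Cd79a (Igα; chromosome 7, 24897497 to 24901858 on GRCm38.p6) is a signalling chain of the receptor. Its level was 12.42 on the WT control, 12.19 and 12.12 on the p53-null controls, and 10.75 on the Δ122p53 control. It was 9.76 on WT amsacrine, 10.25 on p53-null amsacrine, 9.39 on Δ122p53 amsacrine and 11.30 after irradiation. Every amsacrine array lay below every control, and the irradiated array lay between the p53-null amsacrine and control arrays. The amsacrine difference was -2.66 ± 0.38 in WT cells (log2 ± standard error, SE, of the limma fit, as below), -1.90 ± 0.33 in p53-null cells and -1.37 ± 0.38 in Δ122p53 cells. The smaller step in Δ122p53 cells started from the lowest control level of the 4.

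Cd79b (Igβ; chromosome 11, 106311341 to 106314562), the partner chain, had smaller steps than Cd79a. Its level was 14.06 on the WT control, 14.10 and 13.82 on the p53-null controls and 13.79 on the Δ122p53 control. With amsacrine it was 12.69 in WT, 13.26 in p53-null and 12.79 in Δ122p53 cells, and the irradiated array, at 14.08, lay within the range of the controls. The 3 amsacrine arrays lay below the 4 controls, by -1.37 ± 0.39 in WT and -0.70 ± 0.34 in p53-null cells, and in Δ122p53 cells the 95% interval of the difference ran from -1.97 to -0.03. The dimmer second probe gave -1.76 ± 0.39, -1.12 ± 0.34 and -0.97 ± 0.39 in the same order.

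Blk (chromosome 14, 63372837 to 63417187), a Src-family kinase of B cells, was at 10.36 on the WT control, 10.52 and 10.33 on the p53-null controls and 10.69 on the Δ122p53 control. It was at 9.45, 9.76 and 8.53 on WT, p53-null and Δ122p53 amsacrine, and at 8.90 on the irradiated array. The controls lay close together, the treated arrays all lay below them, and the Δ122p53 amsacrine array was the lowest. The amsacrine differences were -0.91 ± 0.38 in WT, -0.66 ± 0.33 in p53-null and -2.17 ± 0.38 in Δ122p53 cells. A second Blk probe was detected only on the 2 p53-null controls and gives no further comparison.

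Btk (chromosome X, 134542334 to 134583628), the kinase mutated in X-linked agammaglobulinaemia of humans, was at 10.95 on the WT control, 11.08 and 10.89 on the p53-null controls and 10.83 on the Δ122p53 control. It was at 10.37 on WT amsacrine, 10.79 on p53-null amsacrine, 8.90 on Δ122p53 amsacrine and 10.56 after irradiation. The Δ122p53 amsacrine array thus stood well below the other 7. Amsacrine differences were -0.58 ± 0.38 in WT, -0.19 ± 0.33 in p53-null and -1.93 ± 0.38 in Δ122p53 cells.

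Blnk (SLP-65; chromosome 19, 40928927 to 40994221), the adaptor that links Syk to Btk, varied least. Its level was 11.49 on the WT control, 11.62 and 11.20 on the p53-null controls, and 11.46 on the Δ122p53 control. It was 11.31, 11.18 and 10.70 on WT, p53-null and Δ122p53 amsacrine, and 11.27 after irradiation. Treated and control arrays overlapped, and the amsacrine differences of -0.18 ± 0.41, -0.23 ± 0.36 and -0.77 ± 0.41 were each under 2 SE. Its second probe gave 0.04 ± 0.45, -0.03 ± 0.39 and -0.51 ± 0.45.

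Bank1 (chromosome 3, 136053363 to 136326141), an adaptor that ties the receptor to calcium release, was at 8.72 on the WT control, 8.67 and 9.27 on the p53-null controls and 7.03 on the Δ122p53 control. With amsacrine it was at 6.15 in WT and 5.97 in p53-null cells and, not detected, at 5.44 in Δ122p53 cells; the irradiated array was at 7.45. The amsacrine arrays lay below all controls, and the Δ122p53 control lay below the other controls. The amsacrine difference was -2.57 ± 0.45 in WT and -3.00 ± 0.39 in p53-null cells. On these amsacrine arrays Bank1 lay just above the lowest detected signal (6.05 in WT and 5.95 in p53-null), so the sizes are not exact. In Δ122p53 cells the level was at least 2.36-fold lower as a bound. Such a bound sets the control level against the higher of the lowest detected signal and the probe's own value. It holds only for the main processing and leaves out the spread between arrays, here and below, so the fall may be smaller than the bound. With other processing the Bank1 difference shrank at the least to -1.31 in WT and -1.55 in p53-null cells. In Δ122p53 cells it shrank to -0.49 at the least, a smaller fall than the bound.

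Cd22 (chromosome 7, 30865404 to 30880342), the inhibitory co-receptor that binds sialic acid, went from clear signal to below the threshold for detection. Its level was 8.52 on the WT control, 9.57 and 9.31 on the p53-null controls, and 8.65 on the Δ122p53 control. It was 5.02, 5.51 and 4.98 on WT, p53-null and Δ122p53 amsacrine, all not detected, and 6.78, detected, on the irradiated array. As raw intensity, the controls lay between 421 and 862, and the amsacrine arrays between 71.2 and 100.3. The level with amsacrine was at least 5.52-fold lower in WT, at least 11.2-fold lower in p53-null and at least 7.28-fold lower in Δ122p53 cells. The fitted differences were -3.50 ± 0.39, -3.93 ± 0.34 and -3.68 ± 0.39. With other processing they shrank at the least to -1.44, -2.04 and -1.54, smaller falls than these bounds. The bounds hold only for the main processing and leave out the spread between arrays.

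Fcmr (chromosome 1, 130865777 to 130880790), the Fc receptor for IgM, was at 14.08 on the WT control, 14.02 and 13.75 on the p53-null controls and 13.63 on the Δ122p53 control. It was at 12.03, 12.48 and 11.58 on WT, p53-null and Δ122p53 amsacrine, and at 13.36 on the irradiated array. Amsacrine arrays lay more than 2-fold below every control, while the irradiated array lay just under them. The amsacrine differences were alike in WT (-2.05 ± 0.39) and Δ122p53 cells (-2.04 ± 0.39), beside -1.41 ± 0.34 in p53-null cells.

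Ms4a1 (chromosome 19, 11249679 to 11266149) encodes CD20, a surface protein used to identify B cells. Its level was 8.47 on the WT control, 8.72 and 8.45 on the p53-null controls, and 7.52 on the Δ122p53 control. It was 7.08, 7.12 and 7.58 on WT, p53-null and Δ122p53 amsacrine, and 7.61 on the irradiated array. In WT and p53-null cells the amsacrine arrays lay below the controls, by -1.39 ± 0.39 and -1.47 ± 0.34. In Δ122p53 cells the control was already near the treated level, and the difference was 0.06 ± 0.39. Across the 9 genes, 7 had every amsacrine array below every control, Ms4a1 and Blnk being the exceptions, against 5.94% of all genes. This count includes Cd22, not detected with amsacrine, and Bank1, not detected on the Δ122p53 amsacrine array. Btk entered it by a gap of only 0.03 (10.79 against 10.83), less than the 0.19 between its p53-null controls.

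The first comparison asked what amsacrine did in each genotype. The 9 genes were lower in 9, 9 and 8 cases in WT, p53-null and Δ122p53 cells, with medians of -1.39, -1.41 and -1.58 (log2), beside 0.05, 0.02 and 0.00 over all genes. With Cd22 and Bank1 at their bounds the Δ122p53 median was -1.37, and the other medians stayed the same. At least 2-fold lower were 6 of 9 in WT cells against 12.2% of all genes, 5 of 9 in p53-null cells against 8.41%, and 7 of 9 in Δ122p53 cells against 3.97%. By limma with Benjamini-Hochberg adjustment over all genes, only Cd22 in p53-null cells passed the threshold of 0.05 (adjusted p = 0.0342). That is 1 of 9 genes against 0.0671% of all genes called lower there, and 5 of 9 had an unadjusted p under 0.05, against 17.2%. Cd22 was not detected on any amsacrine array and Bank1 not on the Δ122p53 one, so there they entered these counts through their other arrays. Among genes detected on all arrays, which leave out both, fewer of the 9 were at least 2-fold lower in each genotype (counts in the closing part). None of the 7 measured then passed in p53-null cells, against 0.472% of such genes called lower. In bulk RNA, fewer B cells and less of these RNAs per B cell cannot be told apart.

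In WT cells 0 of 9 genes passed, as did 0% of all genes, with a smallest adjusted p among the 9 of 0.0895 (Cd22, Cd79a and Bank1) and 6 of 9 at an unadjusted p under 0.05, against 19.7% of all genes. In Δ122p53 cells 0 of 9 passed, as did 0% of all genes, with a smallest adjusted p of 0.384 and 7 of 9 at an unadjusted p under 0.05, against 6.87%. These fits have 1 residual degree of freedom. The p53-null call for Cd22 was lost with other background corrections, among other settings (listed in the closing part), and the fitted size for Cd22 in WT cells shrank to -1.44 at the least.

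**Figure D2:**
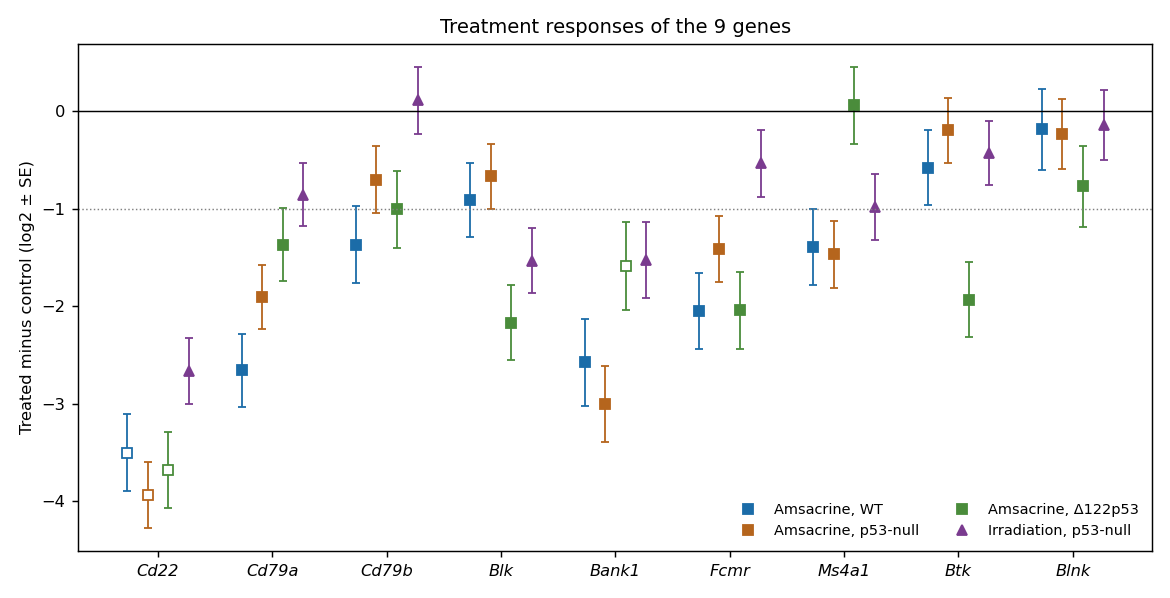
Difference from the control of the same genotype (log2, with SE from limma) for the 9 genes: amsacrine in WT, p53-null and Δ122p53 cells, and irradiation in p53-null cells. The dotted line marks -1 (2-fold lower); Cd22 was not detected with amsacrine, so its plotted differences are fitted values whose size is not exact; Blnk lies at -0.18 in WT cells.

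Pooling the genotypes gave the amsacrine effect they share, from an additive model with terms for genotype and drug, fitted to the 7 arrays that were not irradiated. Cd22, Cd79a, Bank1 and Fcmr fell, 4 of 9 genes against 1.66% of all genes called lower (124 of 7456). Cd22 was not detected on any amsacrine array, so it entered this count through its other arrays. Among genes detected on all arrays, which leave out Cd22 and Bank1, Cd79a, Cd79b and Fcmr passed of 7 measured, against 3.59% called lower. Cd22 was at least 7.67-fold lower by the main processing (fitted -3.73 ± 0.19, adjusted p = 0.00228, limma), and lower in each of the 3 genotypes, as were the next 3. With other settings its pooled effect shrank to -1.71 at the least. Bank1 fell by 2.45 ± 0.31 (adjusted p = 0.0206, limma). The Bank1 effect includes an array on which Bank1 was not detected and others near the lowest detected signal. Cd79a fell by 1.97 ± 0.26 (adjusted p = 0.0220), which is 3.91-fold, and Fcmr fell by 1.79 ± 0.22 (adjusted p = 0.0206), which is 3.46-fold.

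The other 5 genes did not pass in the pooled fit. Cd79b was at -0.99 ± 0.21 (adjusted p = 0.0617, limma), just short of the threshold, and its second probe was at -1.27 ± 0.22 (adjusted p = 0.0454 over all detected probes). Both receptor chains thus had lower levels, with only Cd79a past the threshold by the brighter probe of each gene. Blk was at -1.19 ± 0.30 (adjusted p = 0.0873), Ms4a1 at -0.98 ± 0.32 (0.127), Btk at -0.83 ± 0.33 (0.186) and Blnk at -0.38 ± 0.22 (0.311). Calls in this fit rested on few arrays: without either one of the p53-null controls only Cd22 passed, 1 gene in each case, and likewise without the WT arrays, against 0.0134% of all genes each time. Without the p53-null arrays 0 of 9 passed (smallest adjusted p = 0.762), against 0% of all genes, and without the Δ122p53 arrays 6 of 9 passed, adding Cd79b and Ms4a1, against 9.67% of all genes called lower.

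Whether the response differed between genotypes was tested as a difference of responses in 1 fit. Of the 9 genes, 0 passed in any pair of genotypes, as did 0% of all genes (limma; the smallest adjusted p among the 9 was 1.00 for WT against p53-null, 0.456 for Δ122p53 against WT and 0.490 for Δ122p53 against p53-null). At an unadjusted p under 0.05 there were 0, 2 and 3 of the 9 in the same order, against 1.52%, 10.8% and 8.34% of all genes. Those at an unadjusted p under 0.05 were Btk, Blk and Ms4a1. For the Δ122p53 response minus the p53-null response, Btk was at -1.74 ± 0.51 (adjusted p = 0.490) and Blk at -1.50 ± 0.51 (0.523). Minus the WT response, Btk was at -1.35 ± 0.54 and Blk at -1.26 ± 0.54. Ms4a1 was at 1.53 ± 0.52 against p53-null and 1.45 ± 0.56 against WT cells, and Cd79a was at 1.29 ± 0.53 against WT cells. The WT and p53-null comparisons with Δ122p53 share the Δ122p53 arrays.

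Irradiation was tested in p53-null cells only, against the same control pair as p53-null amsacrine. Of the 9 genes, 8 were lower (median -0.85, beside 0.04 over all genes), and 3 were at least 2-fold lower, against 5.51% of all genes. Those were Cd22 (-2.66 ± 0.34), Blk (-1.53 ± 0.33) and Bank1 (-1.52 ± 0.39). Ms4a1 was at -0.98 ± 0.34, Cd79a at -0.85 ± 0.33 and Fcmr at -0.53 ± 0.34. Btk (-0.43 ± 0.33), Blnk (-0.14 ± 0.36) and Cd79b (0.12 ± 0.34) lay within 1.5 SE of 0. By limma 0 of 9 genes passed, as did 0% of all genes, with a smallest adjusted p of 0.128 (Cd22) and 5 of 9 at an unadjusted p under 0.05, against 13.9% of all genes. The signs for Cd79b and Blnk turned when 1 of the controls was left out (-0.029 without control 2 for Cd79b, 0.071 without control 1 for Blnk).

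Set against amsacrine in p53-null cells, irradiation left 7 of 9 genes at a higher level (median 0.81, beside 0.05 over all genes). At least 2-fold higher were Bank1 (1.48 ± 0.45), Cd22 by the fit (1.27 ± 0.39) and Cd79a (1.05 ± 0.38), thus 3 of 9 against 6.89% of all genes. As a bound, Cd22 was at least 1.78-fold higher after irradiation. The Bank1 level with amsacrine lay close to the lowest detected signal, so the size of its difference is not exact. Fcmr (0.88 ± 0.39), Cd79b (0.81 ± 0.39) and Ms4a1 (0.49 ± 0.39) were also higher, and Blnk was at 0.09 ± 0.41. Blk was at -0.86 ± 0.38 and Btk, within 1 SE of 0, at -0.23 ± 0.38. By limma 0 of 9 passed, as did 0% of all genes (smallest adjusted p = 0.440, and 3 of 9 at an unadjusted p under 0.05, against 10.6% of all genes). Each side of this comparison is 1 array. The time from irradiation to harvest is not stated, so dose and time cannot be taken as matched between the agents.

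Between genotypes, over control and amsacrine arrays together, 0 of 9 genes passed for Δ122p53 minus WT, against 7.62% of all genes called lower. Likewise 0 of 9 passed for Δ122p53 minus p53-null, against 3.58%, and 0 of 9 for p53-null minus WT, where 0% of all genes passed. The lowest in Δ122p53 cells were Cd79a, at -1.02 ± 0.33 against WT (adjusted p = 0.0879, limma) and -1.12 ± 0.31 against p53-null (0.0740), and Bank1, at -1.20 ± 0.40 (0.0929) and -1.33 ± 0.37 (0.0783). At an unadjusted p under 0.05 there were 2, 3 and 1 of the 9 in the 3 comparisons, against 31.7%, 22.7% and 10.4% of all genes. The 1 in p53-null minus WT was Cd22, at 0.74 ± 0.23 (adjusted p = 0.471), a value that is not exact because it takes in amsacrine arrays on which Cd22 was not detected. The WT and p53-null comparisons with Δ122p53 share its arrays.

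On control arrays alone, a comparison added after the data were seen, the same pair was low in Δ122p53 cells. Cd79a was at -1.67 ± 0.38 against WT and -1.40 ± 0.33 against p53-null (adjusted p = 0.0734 and 0.0864, limma). Bank1 was at -1.69 ± 0.45 and -1.94 ± 0.39 (adjusted p = 0.0954 and 0.0594), and Ms4a1 at -0.95 ± 0.39 and -1.07 ± 0.34 (0.205 and 0.166). Blk (0.34 and 0.27), Btk (-0.12 and -0.16), Blnk (-0.03 and 0.05) and Cd79b (-0.27 and -0.17) lay near 0 in both. None of the 9 passed, 0 of 9 against 1.58% of all genes called lower against WT and 1.74% against p53-null. The second Blnk probe went against the first over control and amsacrine arrays, at 1.10 ± 0.29 in Δ122p53 minus WT (adjusted p = 0.0502 over probes) beside -0.32 ± 0.28 for the brighter probe.

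Markers of other cells moved with the Δ122p53 arrays. Of all 7456 genes, 493 were called higher and 568 lower in Δ122p53 minus WT, and 354 higher and 267 lower in Δ122p53 minus p53-null. All 13 measured erythroid markers were higher than in WT cells over control and amsacrine arrays, 11 of them past the threshold (median 3.79), and 12 were past it against p53-null (median 4.59). Their mean level was 10.64 and 10.76 on the Δ122p53 arrays and 6.57 to 7.32 elsewhere, with 13 of 13 detected on each Δ122p53 array and 5 to 7 on the others. T cell markers were past the threshold and lower in 9 of 13 against WT (median -1.44), natural killer (NK) cell markers in 6 of 10 (-1.49), and macrophage and monocyte markers in 5 of 11 (-1.97). Against p53-null these counts were 8 of 13 for T cells (median -1.28), 2 of 10 for NK cells (-0.96) and 6 of 11 for macrophages and monocytes (-2.15). Neutrophil markers were past it and lower in 3 of 12 against WT (median -0.94) and 2 of 12 against p53-null (-0.65). Of 6 dendritic cell markers, 1 was higher and 1 lower against WT (median 0.15), and 1 was higher against p53-null (0.15). Their part in the Δ122p53 values of the 9 genes was not tested.

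**Figure D3:**
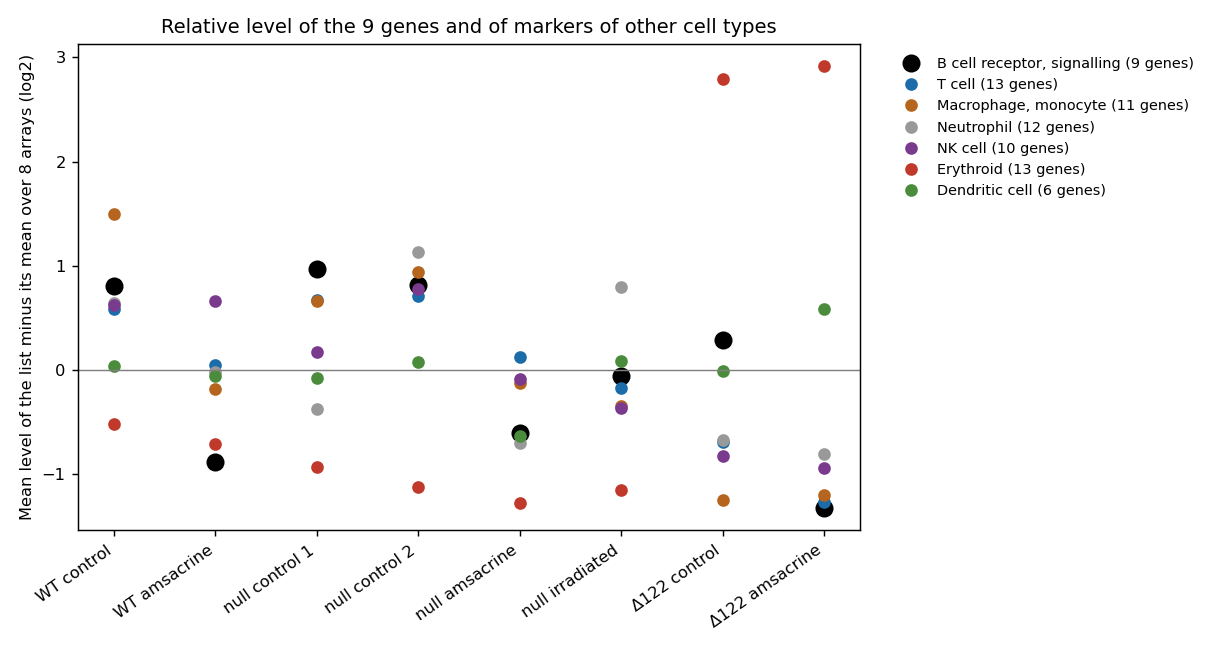
Mean level of the 9 genes and of marker lists of 6 other cell types on each array, minus the list's own mean over the 8 arrays (log2). The 9 genes (large black points) lie at 0.81 to 0.97 on the WT and p53-null controls, 0.28 on the Δ122p53 control, -0.06 on the irradiated array and -0.61 to -1.32 with amsacrine; erythroid markers lie at 2.79 and 2.92 on the Δ122p53 arrays.

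In the shared amsacrine effect the same lists had medians nearer to 0 than the -1.19 of the 9 genes. By genotype, macrophage and monocyte markers were further from 0 than the 9 genes in WT cells (median -1.78), and at -1.19 in p53-null and 0.09 in Δ122p53 cells; their part in the values of the 9 genes was not tested. In the shared effect, T cell markers had a median of -0.32, with 1 of 13 past the threshold, against 1.66% of all genes called lower. That gene was Lat, an adaptor of T cell receptor signalling. It fell by 1.97 ± 0.19 (adjusted p = 0.0122, limma), with 1 amsacrine array on which it was not detected. Thy1 was at -1.27 ± 0.36 and Cd8b1 at -0.77 ± 0.20. Macrophage and monocyte markers had a median of -0.97 with 0 of 11 past it (Mrc1, detected on 1 of 3 amsacrine arrays, Vcam1 -1.16 ± 0.38, Adgre1 -1.12 ± 0.28), and neutrophil markers -0.66 with 0 of 12 (Mpo, detected on 2 of 3 amsacrine arrays, S100a8 -0.91 ± 0.30, Mmp9 -0.90 ± 0.26). Medians were -0.22 for NK cell markers (0 of 10; Nkg7 -1.04 ± 0.35, Klre1 -0.55 ± 0.24, and Klrk1, not detected with amsacrine), -0.05 for erythroid markers (0 of 13; Slc4a1 -1.45 ± 0.32, Alas2 1.06 ± 0.81, and Klf1, detected on 1 of 3 amsacrine arrays) and -0.17 for dendritic cell markers (0 of 6; Zbtb46 1.05 ± 0.21, Bst2 -0.51 ± 0.62, and Cd209a, not detected with amsacrine).

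After irradiation of p53-null cells the order was another one. T cell markers had a median of -1.06 and macrophage and monocyte markers -1.99, both lower than the -0.85 of the 9 genes, and NK cell markers were at -0.72. Dendritic (-0.04) and erythroid markers (-0.09) had medians nearer to 0. Neutrophil markers had a median of 0.49, but their mean level on the irradiated array (9.91) lay between those of the p53-null controls (8.74 and 10.25), so its direction depends on the control used. In all these lists 0 genes passed by limma.

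Other genes of the pathway were grouped by role, and medians are shared amsacrine effects (log2). Of 22 measured genes of proximal signalling (33 listed), 3 fell, against 1.66% of all genes called lower, and 0 rose (median -0.47). They were Sh3kbp1 (-1.72 ± 0.28, adjusted p = 0.0368, limma), an adaptor of receptor endocytosis, Rasgrp2 (-1.54 ± 0.18, 0.0206), an exchange factor for the GTPase Rap, and Prkcb (-1.45 ± 0.18, 0.0206), the protein kinase C that acts after Btk. Rasgrp2 was not detected on 1 of the 3 amsacrine arrays, so its size is not exact.

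Of 17 measured inhibitory genes (20 listed), 4 fell, against 1.66% of all genes called lower, and 0 rose (median -0.87). Siglecg, a relative of Cd22 that also binds sialic acid, was at -2.51 ± 0.40 (adjusted p = 0.0346, limma). Fcrla, an Fc receptor-like protein of B cells, was at -2.14 ± 0.20 (0.0122). Ptpn6, the SHP-1 phosphatase that Cd22 recruits, was at -2.11 ± 0.38 (0.0482), and the adaptor Dok3 was the other one. Of 21 immunoglobulin and surrogate light chain genes 1 was measured, Vpreb3, and it fell (-2.60 ± 0.24, adjusted p = 0.0122).

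The counts in the next lists stand beside 1.66% of all genes called lower. Of 21 measured genes for the BAFF receptor and co-stimulation (24 listed), 1 fell (median -0.65): the tetraspanin Cd37, at -1.45 ± 0.26 (adjusted p = 0.0491, limma). Tnfrsf13b, the TACI receptor, was not detected with amsacrine and was detected on 3 of 4 controls. As a bound it was at least 1.33-fold lower (adjusted p = 0.0947, limma), and Cd52 was at -1.57 ± 0.36 (0.0717). Of 17 measured B cell transcription factors (22 listed), 1 fell (median -0.76): Bcl11a, at -2.73 ± 0.24 (0.0122), beside Klf2 at -1.28 ± 0.28 (0.0680) and Mef2c at -1.22 ± 0.30 (0.0787). Genes that receptor crosslinking induces had a median of -0.26, with 0 of 18 past the threshold. Fosb, not detected with amsacrine and detected on 3 of 4 controls, had a bound of 4.40-fold lower (adjusted p = 0.147, limma). The 95% interval of its fitted difference ran from -5.33 to -0.51, so the fall may be smaller than this bound. Fos was at -1.82 ± 0.84 and Egr1 at -1.33 ± 0.43. The mean level of these genes was 8.71 and 10.18 on the p53-null controls and 9.03 on p53-null amsacrine. Their direction in p53-null cells thus depends on the control used. Plasma cell genes had a median of -0.42, with 0 of 7 past it: Fkbp11, not detected with amsacrine, was at least 1.40-fold lower (adjusted p = 0.128), Tnfrsf17 was detected on 1 of 3 amsacrine arrays, and Mzb1 was at -0.53 ± 0.27.

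**Figure D4:**
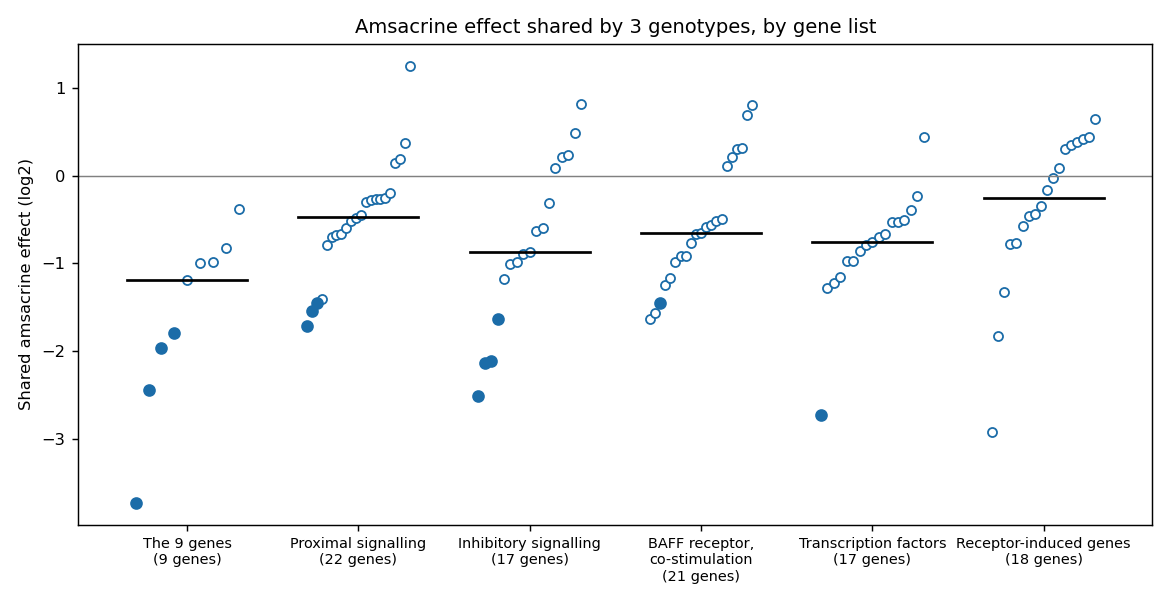
Amsacrine effect shared by the 3 genotypes (log2) for each measured gene of the 9 and of 5 other lists of the pathway. Filled points passed an adjusted p of 0.05 and bars are medians: -1.19 for the 9 genes, -0.47 for proximal signalling, -0.87 for inhibitory signalling, -0.65 for the BAFF receptor and co-stimulation, -0.76 for transcription factors and -0.26 for receptor-induced genes.

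The 7 genes detected on all arrays were compared by their profiles over the 8 arrays, as a description, since the arrays share genotype and treatment. Pearson's r with the mean of the other 6 was highest for Fcmr (0.974) and Cd79a (0.920). It was 0.854 for Cd79b, 0.818 for Btk, 0.796 for Blnk, 0.769 for Blk and 0.677 for Ms4a1. Of 4867 other genes detected on all arrays, those most like the mean profile of the 7 were H2-DMb1 (r = 0.980), Gstp1 (0.977), Akap12 (0.970), H2-DMa (0.969), Itpr3 (0.969), Arhgap9 (0.966), Sipa1 (0.966) and Hdac7 (0.964). H2-DMa and H2-DMb1 encode the chains of the protein that loads peptides onto MHC class II.

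Of those 8 genes, 6 passed in the shared amsacrine effect, while Gstp1 (-0.82 ± 0.19) and Akap12 (-0.91 ± 0.21) had an adjusted p of 0.0737 each (limma). H2-DMb1 was at -2.19 ± 0.21 (adjusted p = 0.0122) and H2-DMa at -1.86 ± 0.21 (0.0206). Itpr3, the calcium channel of internal stores, was at -1.52 ± 0.18 (0.0206). Sipa1 (-2.14 ± 0.18), Hdac7 (-1.51 ± 0.18) and Arhgap9 (-1.40 ± 0.18) also fell. Likeness in profile and this effect come from the same arrays, so neither stands apart from the other.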

How the data were processed

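RNA from pooled mouse splenocytes was measured on 8 one-colour Illumina arrays, grouped by the genotype and treatment in the labels. Per the file headers, the intensities the authors deposited for 24613 probes were not normalized. Each comes with a detection p-value, also deposited by the authors. A further table deposited by the authors holds normalized values, read here as log2. The submitters' processing notes name lumi without a version. The scanner and the way detection was computed were not given in the sources used here.

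In R 4.3.3 with limma 3.58.1, neqc corrected the intensities (offset 16, with background taken from the detection p-values) and gave quantile-normalized log2 values. Of the probes, 20984 had 1 gene symbol, 1 had several and 3628 were unnamed here. For each gene the brightest probe detected on at least 1 array was used (7456 genes). Median intensity per array was 69.7 to 81.5, and the number of arrays limits the precision.

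Treatment responses came from a limma model with a mean for each of 7 groups, whose 1 residual degree of freedom is the p53-null control pair. The shared amsacrine effect and genotype differences came from an additive limma model on 7 arrays (3 residual degrees of freedom, which also hold differences in response). All tests were 2-sided and p-values were adjusted by Benjamini-Hochberg over all genes (threshold 0.05). The fits were tested on simulated data. Alternatives covered background, offset, normalization, filter, probe choice, the deposited values and leaving out arrays.

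The genes, lists and tests were chosen with earlier results of these data known. Named are the 9 genes, the 3 genes of each other list with the largest shared amsacrine effect (past the threshold first), and the 8 genes most like the mean profile. Dok3, which completes a count, was named after its value was seen. The choice used fitted effects, also of genes not detected on some arrays. List counts have no test of their own.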

Additional observations from a re-analysis of the deposited data

How the results depend on the processing

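With 1 or 2 arrays a group, calls depended on single arrays. Many of the values counted next could not change direction, so the count does not measure how steady directions were. Settings that change the filter or take each probe by itself reuse the same normalized values. Leaving out a p53-null control does not alter the WT and Δ122p53 responses. Of 609 values of single genes under alternatives, 574 kept direction and, where tested, side of the threshold, 24 lost the call, 6 gained one and 5 changed sign: Cd79b after irradiation was -0.13 with cyclic loess and -0.087 with the mean of detected probes, and Blnk for irradiation minus amsacrine was -0.30 with that mean. The irradiation difference also changed sign when 1 p53-null control was left out: Cd79b was at -0.029 without control 2 (0.26 without control 1), and Blnk at 0.071 without control 1 (-0.35 without control 2). The 1 gene called in the p53-null amsacrine response became 0 with normexp (offset 50), no background correction, neqc offset 50, cyclic loess, the authors' deposited values, no detection filter, or only genes detected on all arrays (which leaves out Cd22), and 2 with the mean of probes. The 4 called in the shared effect became 2 with the deposited values or no detection filter, 1 without either p53-null control, 1 without WT arrays and 0 without p53-null arrays. Cd79a and Bank1 were lost in each of these settings, and Bank1 lost its call with normexp as well. Over the alternatives Cd79a was thus called in 8 of 14 and Bank1 in 6 of 13. Cd79b gained one with cyclic loess, with the mean of probes and among genes detected on all arrays, which leave out Cd22 and Bank1. Over all genes, 154 called in the shared effect became 42 with the deposited values, 93 without the filter, 103 with normexp, 1 without either p53-null control or the WT arrays, 0 without p53-null arrays and 1265 without Δ122p53 arrays. For the p53-null amsacrine response, 10 called genes became 63 with the mean of probes, 32 among genes detected on all arrays, and 0 in the other settings that lost Cd22. Among genes detected on all arrays (4878, with 7 of the 9), those at least 2-fold lower were 4 with amsacrine in WT (against 9.08% of such genes), 3 in p53-null (7.18%) and 5 in Δ122p53 cells (4.20%), and 1 after irradiation (5.23%). Apart from those settings that leave out arrays, the cause of these changes was not tested. In p53-null cells the amsacrine differences of Cd22, Bank1 and Ms4a1 shrank at the least to -2.04, -1.55 and -0.86. Cd22 and Bank1 have arrays without detected signal, which limits the size of their differences. No paired analysis was possible because only the p53-null control group has 2 replicate numbers. A slide block was not run, since the columns name no slide.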
